A study of Mus musculus with 8 samples.

Results

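Mature Ccr7 dendritic cells were 208 of the 12523 leukocyte-gated cells of MC38 tumors, 66 in the control library and 142 in the irradiated one. A tumor barcode was taken as a member when it held at least 5 unique molecular identifiers (UMIs, counted mRNA molecules) of Ccr7, Fscn1 and Cacnb3 together, with at least 1 of Ccr7, and when the leukocyte genes Tyrobp, Fcer1g, Laptm5 and Coro1a made up more than 0.1% of its gene UMIs. All barcodes also needed 500 gene UMIs, 200 genes, at most 25% mitochondrial UMIs and 20 hashtag UMIs, which 13262 tumor barcodes had. Because the members were chosen on UMIs of these same cells, every contrast between them and other cells is a description without a test. Over the whole series, 31324 barcodes of 4 libraries passed the leukocyte gate.

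Cells gated as CD45+CD11b+Ly6Chi, which takes in monocytic suppressor cells, had been sorted from tumors of the mouse colon carcinoma line MC38 and from the blood of mice that bore them. C57BL/6J mice with floxed Ythdf2 carried either no Cre (WT) or Cre at the Lyz2 locus (Ythdf2-cKO), and their tumors received no radiation (control) or a single dose of 20 Gy (IR) 3 days before collection. Cells of 5 mice were pooled per group, stained with hashtag B0301 (WT) or B0302 (cKO) and mixed, so that each tumor library holds both genotypes. A cell was labelled WT when B0301 was at least equal to B0302, and cKO when B0302 was at least 4 times B0301, and 8 members (2 control, 6 IR) fitted neither. The 4 groups then held 44 members labelled WT control, 20 labelled cKO control, 50 labelled WT IR and 86 labelled cKO IR. Each group is 1 pool, so no test between groups was possible and every interval covers counting error only.

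Dendritic cells take up antigen in tissues and, once activated, mature: they induce the chemokine receptor CCR7, follow its ligands CCL19 and CCL21 into lymphatics and reach the lymph node, where they present peptides to T cells. Mature cells rebuild their actin skeleton, which involves the bundling protein fascin (Fscn1), raise costimulatory ligands and cytokines through NF-κB, and stop taking up and processing new antigen. In tumors the same program includes inhibitory genes such as Cd274 (PD-L1) and Cd200, and the T cell attractant Ccl22.

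The Lyz2 promoter that drives Cre is a myeloid promoter, and Lyz2 was low in the members. Lyz2, the gene of lysozyme M, stood at 506.5 CPM (counts of 1 gene scaled to 1000000 summed UMIs) in members labelled WT control and 416.7 in WT IR, against 8491 and 6371 in the other tumor myeloid cells of the same groups. In cells labelled cKO it was 37.38 and 147.1 CPM in members and 162.4 and 150.1 in other myeloid cells (control, then IR). The targeted gene went against the label. Ythdf2 was 116.9 and 59.86 CPM in members labelled WT (control, then IR) and 291.6 and 309.8 in members labelled cKO, and in other myeloid cells it was 56.68 and 54.15 against 521.9 and 360.5. The libraries read the 3′ ends of transcripts, which do not tell whether an exon upstream was deleted, so genotype is given throughout as the hashtag label.

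The hashtag margin was narrow for cells labelled WT in the control library. Of all leukocyte-gated cells so labelled, 1512 of 2559 in control and 760 of 3254 after IR had B0301 below 4 times B0302, and of the members 22 of 44 and 4 of 50 did. The tumor matrices also shared barcodes. Of the members, 64 of 66 in the control library and 142 of 142 in the IR library were also present with 500 or more gene UMIs in the other tumor matrix, with a median of 0.4563 and 0.5911 of the UMIs of their own matrix, and 3 and 2 of them carried 20 hashtag UMIs in both. The rules were applied to each matrix on its own, so a cell with 20 hashtag UMIs in both could be counted in both. Of the leukocyte-gated cells, 265 (control) and 263 (IR) held them in both. In the other matrix, 45 of 66 and 129 of 142 members also reached 5 selection UMIs. Among all leukocyte-gated cells, 4733 of 4927 (control) and 7368 of 7596 (IR) were likewise present in both matrices. The part of this sharing in the contrasts between libraries was not tested.

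The defining genes were present in every group but not in every cell. Ccr7 (chr11:99144196-99155077, minus strand, mm10) held a median of 11.5 UMIs per cell in WT control, 20.5 in cKO control, 22 in WT IR and 25 in cKO IR, with a lowest value of 1 and a highest of 117 over the 4 groups. Fscn1 (chr5:142960343-142973185, plus strand) was found in 22 of 44, 13 of 20, 26 of 50 and 59 of 86 members in the same order. Cacnb3 (chr15:98630840-98644529, plus strand), a β subunit of voltage-gated calcium channels, was found in 22, 16, 28 and 64 of them. The rule therefore took in cells with Ccr7 alone, without Fscn1 or Cacnb3, which were 21, 4, 20 and 18 of the members.

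Ccl22 (chr8:94745590-94751699, plus strand), the ligand of CCR4 on regulatory and effector T cells, was not part of the rule. It was present in 31 of 44, 19 of 20, 45 of 50 and 80 of 86 members. Its summed level was 1975, 1503, 2097 and 2336 CPM in the members and 8.959, 7.135, 5.288 and 7.133 CPM in other myeloid cells. All 4 groups of members lay far above all 4 groups of other cells. Pooled, the log2 ratio was 8.22 (95% counting interval 8.1 to 8.36). With each cell thinned to 3000 UMIs, Ccl22 was detected in 80.31% of members (87.5% unthinned) and in 1.212% of other myeloid cells (1.907%), so the label of mature Ccr7 dendritic cells held by this marker.

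Members just inside and outside the threshold looked different from the rest. Of the 10 leukocyte-gated cells with exactly 4 UMIs of the selection genes, 2 had Ccl22 and none had Il4i1. Of the 8 members with 5 UMIs, 2 had Ccl22 and 2 carried 3 or more UMIs of lymphoid genes. Among the 34 members with 5 to 9 selection UMIs, Ccl22 was found in 44.12% and C1qa stood at 450.6 CPM. Among the 89 members with 40 or more, Ccl22 was found in 97.75% and C1qa stood at 37.39 CPM. The low end was unevenly spread, with 15 members of 5 to 9 selection UMIs in WT control, 2 in cKO control, 8 in WT IR and 8 in cKO IR.

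The share of members among leukocyte-gated cells ranged from 1.003% to 2.214%. It was 1.719% (exact binomial interval 1.252 to 2.301, 44 of 2559 cells) in WT control, 1.003% (0.6134 to 1.544, 20 of 1995) in cKO control, 1.537% (1.143 to 2.021, 50 of 3254) in WT IR and 2.214% (1.775 to 2.727, 86 of 3884) in cKO IR. After IR the share was higher by 1.212 points (Newcombe interval 0.5283 to 1.833) in cells labelled cKO. In cells labelled WT the difference of -0.1829 points (-0.871 to 0.4682) was within counting error. The cells labelled cKO held fewer members than those labelled WT in control tumors, by -0.7169 points (-1.396 to -0.02209), and more after IR, by 0.6776 points (0.03879 to 1.309). Both of the last intervals end close to 0, and both crossed it under other settings. The sort on CD11b and Ly6C can set these shares, which are shares of sorted cells.

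Split by Fscn1, the share after IR differed most in the Fscn1-positive cells labelled cKO. Members with a Fscn1 UMI were 0.8597% of leukocyte-gated cells in WT control (22 cells), 0.6516% in cKO control (13), 0.799% in WT IR (26) and 1.519% in cKO IR (59). Members without one were 0.8597% (22), 0.3509% (7), 0.7376% (24) and 0.6952% (27). The interval of the Fscn1-positive share in cKO IR, 1.158 to 1.955, did not overlap that in cKO control, 0.3474 to 1.112, whereas the 4 intervals of the Fscn1-negative share overlapped each other. The difference between the divided sets was not tested.

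**Figure D1:**
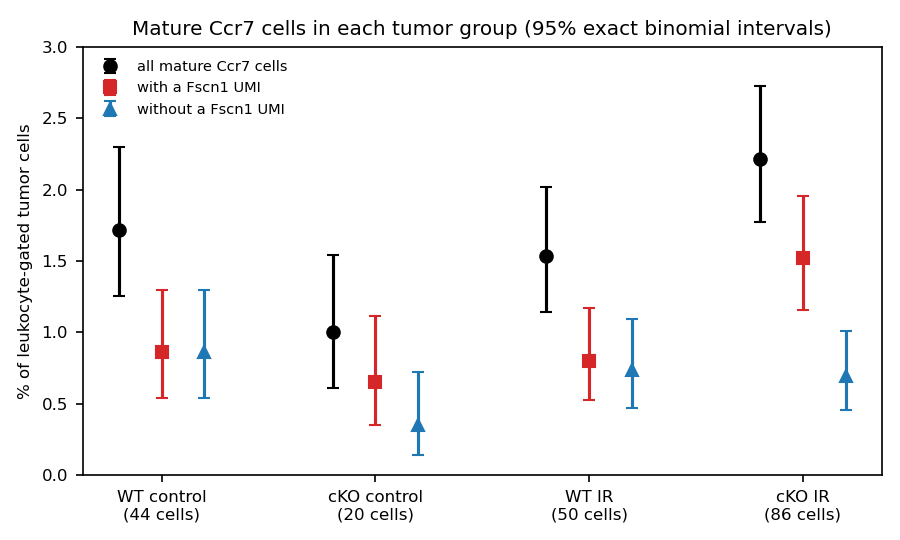
Share of mature Ccr7 cells (percent of leukocyte-gated tumor cells, vertical axis) in the 4 tumor groups, for all members (circles), members with a Fscn1 UMI (squares) and members without (triangles); bars are 95% exact binomial intervals, which cover counting error only. The highest share, 2.214%, and the highest Fscn1-positive share, 1.519%, are both in cKO IR.

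The blood held no such cells that the rule could find. It took in 12 barcodes of the blood control library and 6 of the blood IR library, and their selection UMIs were all Ccr7 (74 and 39), with no UMI of Fscn1, Cacnb3 or Ccl22. All of these barcodes carried 3 or more UMIs of lymphoid genes.

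Genes used for the sort were low in the members. Itgam, which encodes CD11b, stood at 51.13, 0, 64.47 and 79.23 CPM in members (WT control, cKO control, WT IR, cKO IR; a count of 0 in cKO control allows up to 22.43 CPM, as 3 UMIs) and between 463.3 and 703.9 CPM in other myeloid cells. Ly6c2, one of the genes of the Ly6C antigen, stood at 75.48, 104.7, 221 and 162.7 CPM in members and between 211.7 and 1666 CPM in the others. Sorted cells were thus members by mRNA although the mRNA of both sorted surface proteins was scarce in them. The median depth of members was 8814.5, 6551.5, 7629.5 and 7518.5 gene UMIs, against 6638, 7978, 6101 and 6206.5 in the other myeloid cells.

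Next, members were set beside the other tumor myeloid cells. Past a log2 ratio of 1, 568 of 7930 genes (7.16%) were higher in members and 1530 (19.3%) were lower, among genes with at least 10 UMIs expected in the smaller set. This filter follows the larger set of other cells and keeps genes that are high there, so the balance of higher and lower genes is not read. In all 4 groups at once, 48 genes were higher and 262 lower. The median of all genes was -0.17, so list medians are read against that value.

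Of 14 genes for migration and chemokines that could be compared, 8 were higher and 4 lower, with a median log2 ratio of 1.21. Ccl17, the other CCR4 ligand, stood at 2625, 1891, 2328 and 1723 CPM in members and between 121.7 and 188.4 CPM in other cells (log2 ratio 3.78, 3.72 to 3.83). Ccl5, which attracts T cells, stood at 7366, 5286, 3686 and 4571 CPM against 234.6 to 481 (3.82, 3.78 to 3.85). These ligands were high in every group of members. The inflammatory chemokines went the other way, with Ccl3 at a log2 ratio of -4.28 and Ccl4 at -3.82.

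Of 15 genes for costimulation and T cell cytokines, 9 were higher and 3 lower, with a median of 1.06. Il12b, the shared subunit of IL-12 and IL-23, stood at 321.4, 411.2, 225.6 and 257.5 CPM in members and at 0.6433 CPM or less in the other groups (467 against 18 UMIs). It counts among the 9, but it passed the filter through its UMIs in the members, so no ratio is given. It came from few cells: 54 of 200 members had an Il12b UMI, and the 20 cells with the most held 77.94% of its UMIs. Cd40, the receptor for T cell help, was higher by 2.02 (1.88 to 2.16), Tnfrsf9 (4-1BB) by 2.05 (1.93 to 2.16) and Il15ra, which presents IL-15 to T cells, by 2.57 (2.32 to 2.82). The B7 ligands Cd80 and Cd86 were each higher by 1.06. The adhesion receptor Cd44 was lower by -2.36.

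The gene filter rests on the pooled rate, which the far larger set of other cells sets, and it left out genes with few UMIs outside the members. With a filter on the mean of both CPM values, an alternative chosen after the values were seen, such genes enter through their level in the members, so a high ratio is fixed by the filter and only their levels are given. Cd70, the ligand of CD27 on T cells, stood at 53.39 CPM in members and 0.07677 in other cells, Tnfrsf4 (OX40) at 82.46 and 0.3327, and the dendritic cell receptor Flt3 at 85.43 and 1.945. T cell genes entered in the same way, with Cd8a at 21.36 and 0.1407 CPM and Cd3d at 27.88 and 0.4606.

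Of 13 regulatory genes, 4 were higher and 6 lower, with a median of 0.19. Il4i1, a secreted amino acid oxidase that restrains T cells, stood at 297.1, 575.7, 623.9 and 550.3 CPM in members and at 5.088 CPM or less in the others. Cd200, the ligand of the inhibitory receptor CD200R, was found in 60% of members and 0.9937% of other myeloid cells. Both count among the 4, but they passed the filter through their UMIs in the members, so no ratio is given. Socs2, a feedback inhibitor of cytokine signaling, was higher by 3.41 (3.27 to 3.55) and Pdcd1lg2 (PD-L2) by 2.78 (2.62 to 2.93). Cd274 was closer to the other cells, at a log2 ratio of 0.55 (0.43 to 0.66). The 6 lower genes show that the list did not move as a whole.

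Of 29 genes for NF-κB and maturation factors, 14 were higher and 1 lower, with a median of 0.93. Relb, a subunit of the alternative NF-κB pathway, stood at 219.1, 418.7, 285.5 and 353.7 CPM in members against 34.56 to 39.81 CPM in the others (3.01, 2.88 to 3.15). Its partner Nfkb2 was higher by 1.55, Rel by 1.66 and Birc2, a ubiquitin ligase of the pathway, by 3.41. Factors tied to dendritic cell lineages were also higher, with Batf3 at 3.64 (3.42 to 3.86) and Irf8 at 2.43 (2.36 to 2.49). Stat4, which carries the IL-12 signal, stood at 5.47 (5.29 to 5.66) and Etv3, a repressor induced in mature cells, at 2.69 (2.58 to 2.8).

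Of 11 genes for MHC class II presentation, 5 were higher and none lower, with a median of 0.84. H2-Aa, the α chain of I-A, was higher by 1.17 and H2-Oa, which restrains peptide loading, by 3.5, while the lysosomal protease Ctss was lower by -0.91. Of 12 class I genes, 4 were higher and none lower (median 0.6). By the naming rule the highest ratios in all groups included Cst3 (cystatin C, an inhibitor of lysosomal proteases) at 3.34, Samsn1 at 3.14, Fabp5 (a fatty acid binding protein) at 3.06, Tmem123 at 2.98 and Tuba1a at 2.95.

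Listed genes of other myeloid types were lower in members than in the other myeloid cells. All 16 macrophage genes compared were lower past the limit (median -3.32), as were all 10 monocyte genes (-3.74) and all 7 neutrophil genes (-4.45). Of 15 genes for uptake of pathogens and debris, 13 were lower and none higher (-2.69), and of 10 cycling genes 5 were lower (-1.18). Beside these, 19.3% of all genes were lower. Because the filter follows the other cells, these counts and medians are not read. The lowest by the naming rule included S100a8, a calprotectin subunit of neutrophils, at -5.43, Mgst1, a glutathione transferase, at -4.54, and the chemokines Ccl24 and Ccl8. Ccl24 and Ccl8 held 7 and 5 UMIs in members and passed the filter through the other cells, so no ratio is given. C1qa, a complement gene of macrophages, was lower by -2.86, yet 6 members of WT control, 0 of cKO control, 2 of WT IR and 2 of cKO IR held at least 0.2% C1q UMIs. The summed macrophage list stood at 1928, 216.8, 1524 and 1194 CPM in the members, and its part in the contrasts between groups was not tested.

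**Figure D2:**
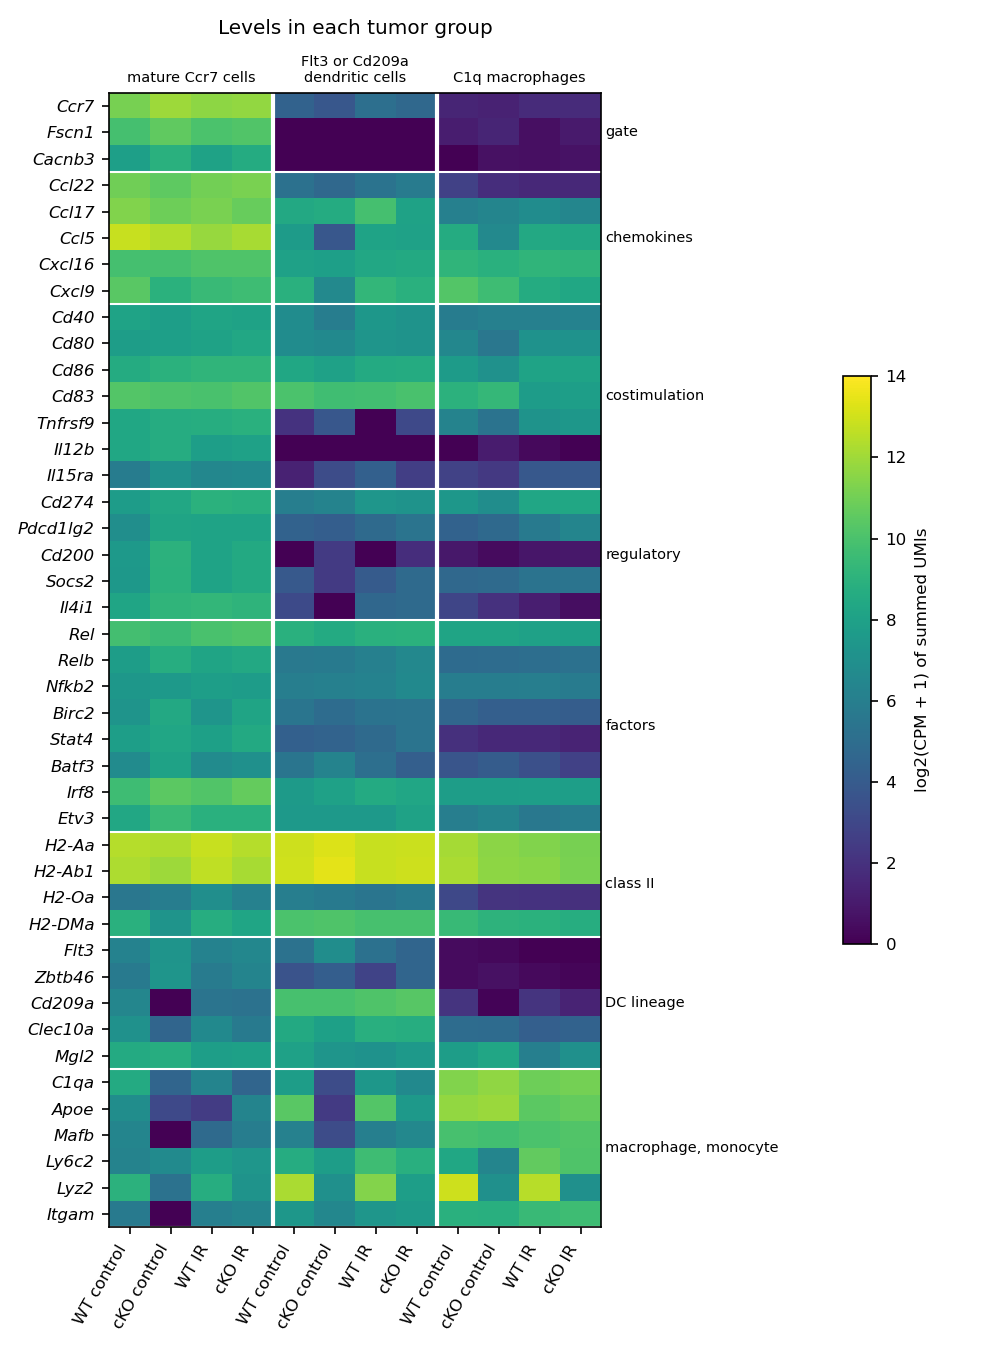
Levels of selected genes, as log2(CPM + 1) of summed UMIs (color scale), in the 4 tumor groups of mature Ccr7 cells, of Flt3 or Cd209a dendritic cells and of C1q macrophages. Ccl22, Il12b, Cd200 and Il4i1 are high in all 4 groups of mature Ccr7 cells and low in the others, Cd209a is highest in the dendritic cells and C1qa in the macrophages.

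The members were then set beside the 188 other cells with a genotype label and at least 3 UMIs of Flt3 and Cd209a together, a set of dendritic cells led by Cd209a. Past the limit, 904 of 7722 genes (11.7%) were higher in the members and 862 (11.2%) were lower, around a median of -0.04. The costimulation list had 13 of 17 genes higher and 2 lower (median 1.73). Genes such as Tnfrsf9 and Il12b passed the filter through the members, so the count is not read. Tnfrsf9 was found in 64% of members and 3.191% of the other set, and Cd200 in 60% and 1.064%. Il12b was found in 467 UMIs of the members and in none of the other set. Ccl22 was higher by 5.7 (5.36 to 6.1). Cd83, in contrast, differed by 0.26 (0.16 to 0.36), so that this maturation marker was nearly as abundant in the Cd209a-led cells.

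Class II genes differed less as a list. None of 11 was higher past the limit and 2 were lower (median -0.42), beside 11.2% of all genes lower, so the count is not read. The 2 were H2-DMb1 at -2.38 (-2.54 to -2.23) and H2-DMa at -1.51 (-1.65 to -1.38). They encode the chains of the peptide editor of the loading compartment. H2-Ab1 differed by -0.69 and its chaperone Cd74, the invariant chain, by -0.68. Of 9 genes of type 2 conventional dendritic cells (cDC2), 4 were lower and none higher (-0.88), led by the lectin Cd209a at -4.5, a gene used to choose the other set. Of 10 cycling genes, 7 were lower (-2.18), but some of them passed the filter through the other set, so this count is not read.

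Against 2883 C1q macrophages, cells with at least 0.2% C1q UMIs, 621 of 8163 genes (7.61%) were higher and 1768 (21.7%) lower. Ccl22 and Il4i1 passed the filter through the members, so only detection is given. Ccl22 was found in 87.5% of members and 1.145% of the macrophages, and Il4i1 in 64% and 1.006%. Ccl5 differed by 4.26 (4.21 to 4.31). H2-Ab1 differed by 0.63 (0.6 to 0.66), within the limit, whereas C1qa, used to choose the macrophages, differed by -4.41.

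Within the members, cells with and without a Fscn1 UMI were unlike. The 120 cells with one (median depth 7380.5 UMIs) and the 80 without (8814.5) differed past the limit in 571 of 5798 genes (9.85%) that were higher with Fscn1 and 541 (9.33%) that were lower. Since Fscn1 UMIs divided the cells, this too is a description. Of 11 class II genes 9 were lower with Fscn1 and none higher (median -1.8), and of 17 costimulation genes 7 were higher and none lower (0.75).

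The chemokines split between the sets. Ccl22 was 2844 CPM with Fscn1 and 1208 without, and Ccl5 was 7955 and 1458. Ccl17 was higher in the cells without Fscn1, at 3192 against 1255 CPM, as was the interferon-induced CXCR3 ligand Cxcl9, at 1860 against 125.5 CPM (log2 ratio -3.88, -4.17 to -3.62). Thus Ccl22 and Ccl17, ligands of the same receptor, had opposite sides.

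Of 12 regulatory genes 3 were higher with Fscn1 and 2 lower (median -0.29). Lgals9 (-1.18) and Havcr2 (-1.61) were the lower genes, and Cd274 differed by 0.1. Cd200 was 487.3 against 87.16 CPM, Socs2 475.6 against 93.87 and Il15ra 149 against 14.75. Flt3 was 137.2 against 20.11 CPM, Batf3 was 207.5 against 30.84, and Fas, the death receptor, was 73.41 against 10.73. Cd40, Cd86 and Cd83 lay within 0.2 of equal on the log2 scale. Cells without Fscn1 held the cDC2 lectins, with Cd209a at 0 UMIs with Fscn1 and 80 UMIs without, Clec10a at 8.512 against 175.7 CPM and Mgl2 at 72.35 against 561.9. They also held Ciita, the master activator of class II genes, at 130.1 against 21.28 CPM.

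The interferon and macrophage lists were compared across the same division. Of 21 interferon response genes 11 were lower with Fscn1 and none higher (median -1.02), and of 12 macrophage genes 7 were lower (-1.05), beside 9.33% of all genes. Some, such as Ifi44 (6 UMIs with and 29 without) and Mrc1 (9 and 21), passed the filter through the cells without Fscn1. These counts are therefore not read. Of 5 T cell genes compared 4 were lower (-4.87), but they passed the filter through the cells without Fscn1, so this count is not read. Their UMIs came from few cells. The 8 T cell genes held 345.8, 291.6, 6.907 and 1.415 CPM in the 4 groups. They held 25.53, 70.47, 6.907 and 1.415 CPM once the 3 control members with at least 3 lymphoid UMIs (2 WT, 1 cKO) were left out. B cell genes held 1 UMI in all members and genes of mast cells and basophils held none.

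**Figure D3:**
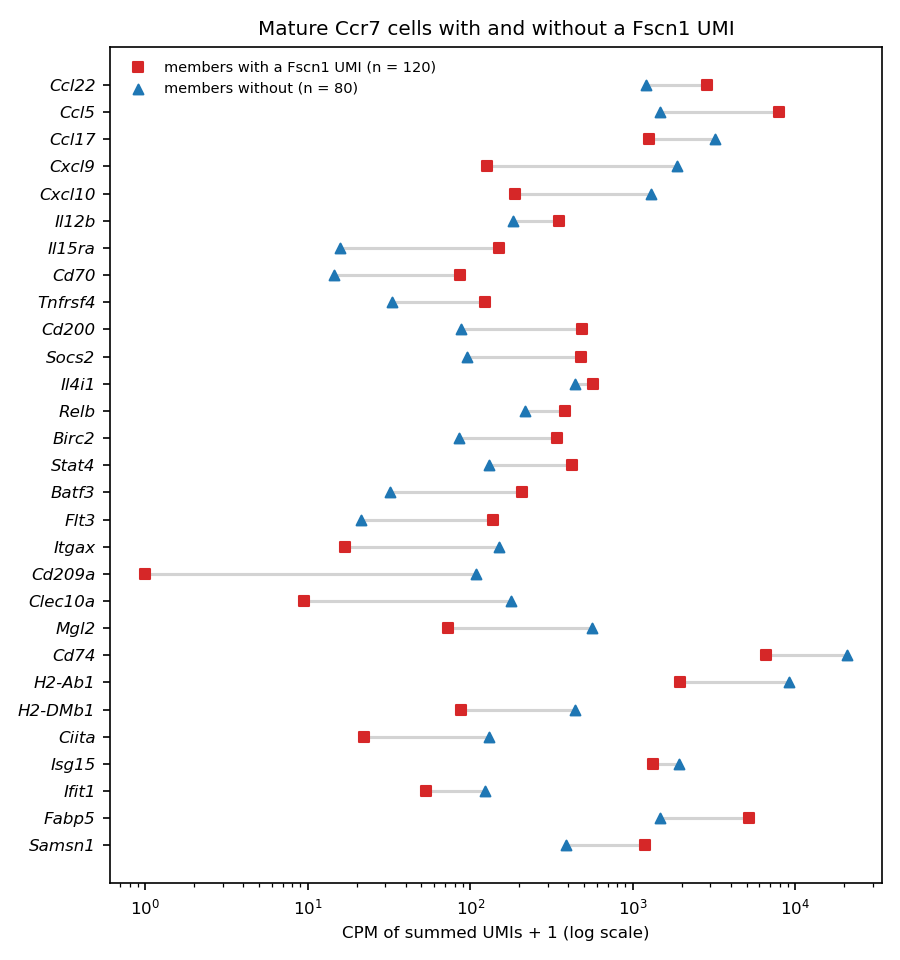
Levels (CPM of summed UMIs plus 1, log axis) in the 120 mature Ccr7 cells with a Fscn1 UMI (squares) and the 80 without (triangles), joined by a line for each gene. Ccl5, Cd200 and Flt3 lie higher with Fscn1, and Cxcl9, the class II genes and the cDC2 lectins lie higher without it.

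Many Fscn1-positive members lacked H2-Ab1 altogether. H2-Ab1 (chr17:34257689-34269419, plus strand) encodes the β chain of I-A. It had no UMI in 54 of the 120 Fscn1-positive members (45%) and in 7 of the 80 others (8.75%). By group these were 9 of 22, 7 of 13, 6 of 26 and 32 of 59 Fscn1-positive cells, so they occurred with both labels and both treatments. The median depth of the 54 cells was 6355 UMIs and that of the 66 Fscn1-positive cells with H2-Ab1 was 7856.5. The H2-Ab1 level in droplets without a cell was 2413 CPM (control) and 2142 CPM (IR).

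The cells without H2-Ab1 were otherwise mature Ccr7 cells. All 54 had Ccl22 and Cst3 UMIs, and Ccl5 was 11540 CPM in them against 5604 CPM in the Fscn1-positive cells with H2-Ab1. H2-Aa was 746.4 against 4762 CPM and Cd74 was 1802 against 9788 CPM, so the other class II genes were low together with H2-Ab1. Among members with an H2-Ab1 UMI, class II was also lower in the 66 cells with Fscn1 than in the 73 without, with H2-Aa at 4762 against 9946 CPM and Cd74 at 9788 against 21730 CPM. The class I heavy chain H2-K1 was not lower, at 2399 CPM in the 66 cells and 2064 in the 73. It stood at 3316 CPM in the 54 Fscn1-positive cells without H2-Ab1.

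**Figure D4:**
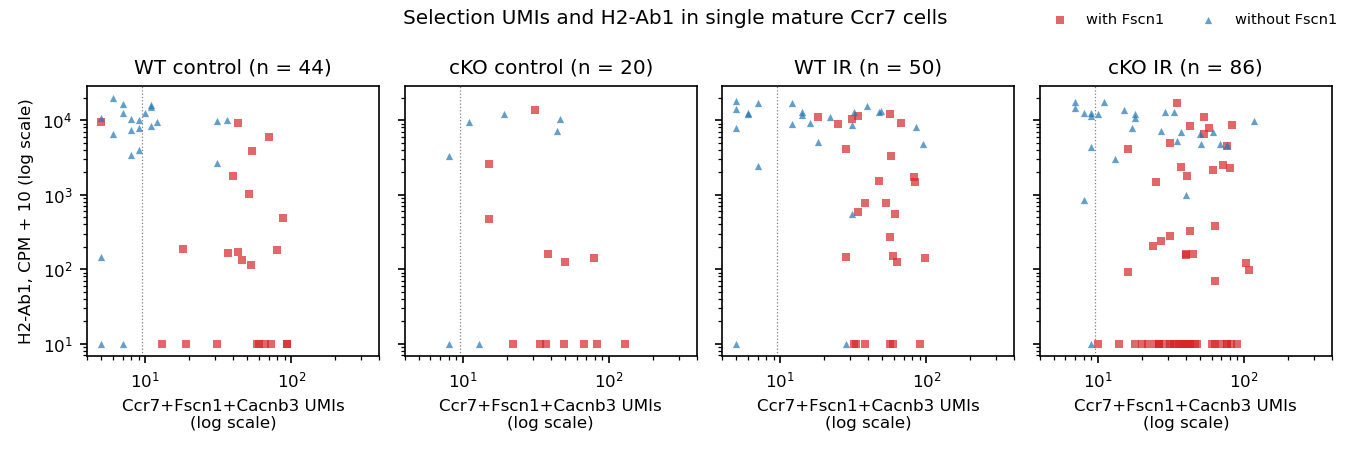
Each member by its UMIs of the 3 selection genes (horizontal, log axis) and its H2-Ab1 level (vertical, CPM plus 10, log axis) in the 4 tumor groups; squares have a Fscn1 UMI, triangles have none, and the dotted line marks the division between 9 and 10 selection UMIs. The bottom row of points holds the cells with no H2-Ab1 UMI, 54 of them squares.

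IR was compared with control within each label. In members labelled WT, 216 of 4209 genes (5.13%) were higher after IR and 130 (3.09%) lower. In members labelled cKO, 134 of 1840 genes (7.28%) were higher and 26 (1.41%) lower, or 160 and 10 with TMM factors. Of the 1840 genes compared in both, 27 were higher in both and none was lower in both, and 25 of the 27 had intervals above 0 in both. The filter follows the deeper group, which in cKO is IR (706829 UMIs against 133760 in control). The balance of higher and lower genes is therefore not read in cKO or over both labels.

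Several interferon response genes were higher in members after IR under both labels. Of 20 compared in WT, 14 were higher and none lower (median 1.7), and of 14 compared in cKO, 10 were higher and none lower (1.48). Beside these, 5.13% (WT) and 7.28% (cKO) of all genes compared in members were higher. In the other tumor myeloid cells, 20 of 23 (WT, 1.99) and 21 of 23 (cKO, 2.83) were higher, beside 3.37% (WT) and 4.95% (cKO) of all genes compared there. The counts for members labelled cKO share the limit of the filter given above. In WT, genes such as Ifit1 also passed the filter through the IR group. The counts and medians of the members are therefore not read. The medians rest on different numbers of genes and their difference was not tested.

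Isg15, a ubiquitin-like modifier, stood at 555.2, 448.6, 2291 and 2000 CPM in members, higher after IR by 2.04 (1.84 to 2.26) in WT and 2.15 (1.78 to 2.55) in cKO. Irf7, the factor that amplifies type I interferon, stood at 77.92, 74.76, 439.7 and 367.8 CPM and was found in 10 of 44, 4 of 20, 30 of 50 and 46 of 86 members. Both IR groups lay above both control groups for these genes. Ifi27l2a stood at 304.4, 179.4, 1962 and 1658 CPM, with differences of 2.68 (2.42 to 2.97) and 3.19 (2.63 to 3.86). Ifit1, an inhibitor of viral RNA translation, had 1 UMI in WT control, 0 in cKO control, 78 in WT IR and 61 in cKO IR. In WT it passed the filter through the IR group, so no ratio is given. Rsad2 (viperin) was lower in the members than in other cells at each condition, at 43.83, 29.9, 237.1 and 130.2 against 177, 81.46, 1183 and 1077 CPM. Its ratio after IR was past the limit in both, but in cKO it passed the filter through the IR group.

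Not all members of the list were higher. Gbp2, a guanylate-binding protein, differed by -0.7 (-1.01 to -0.39) in WT and 0.4 (-0.13 to 0.99) in cKO. By the naming rule Slfn1, Ifi211, Ccl4 and Slpi were also higher in both, but in cKO all 4 passed the filter through the IR group. Slpi, a protease inhibitor, came from few cells, with 43 of 44 UMIs in 1 cell of WT IR and 91 of 143 in 1 cell of cKO IR. Ccl4 had 47 of 96 UMIs in 1 cell of WT IR and 30 of 69 in 1 cell of cKO IR.

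**Figure D5:**
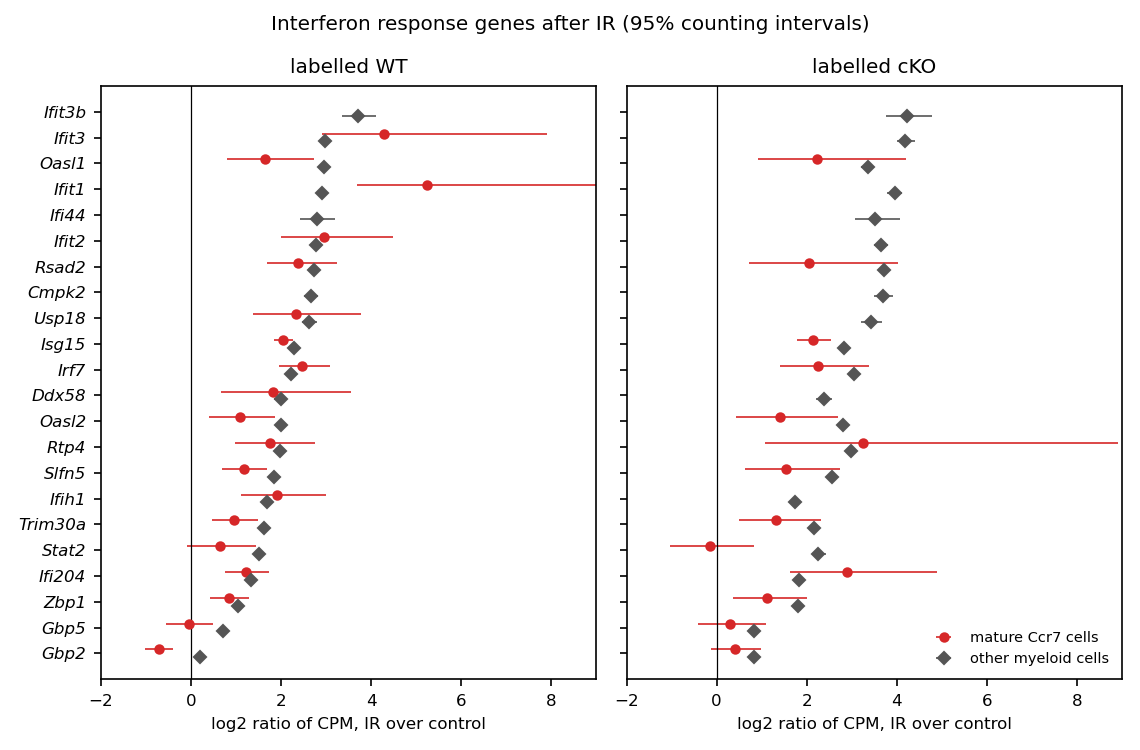
Log2 ratio of CPM after IR over control (horizontal axis) for genes of the interferon response list in cells labelled WT (left) and cKO (right), for mature Ccr7 cells (circles) and other tumor myeloid cells (diamonds), with 95% counting intervals; genes below the count filter have no circle, and 1 interval runs past the axis. Most circles lie to the right of 0, with list medians of 1.7 (WT) and 1.48 (cKO) in the members. Genes such as Ifit1 passed the filter through the IR group, so these medians are not read.

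Class II genes did not follow the other cells after IR. In members their median log2 ratio was 0.37 in WT (2 of 11 genes higher, none lower) and 0.21 in cKO (0 of 9 either way). In other myeloid cells it was -0.8 in WT (3 of 11 lower, beside 6.52% of all genes) and -0.51 in cKO (none past the limit, beside 9.3%). H2-Ab1 stood at 5009, 3895, 6463 and 4577 CPM in the members and at 4303, 3435, 2072 and 2065 CPM in the others. Its ratio was 0.37 (0.29 to 0.45) and 0.23 (0.1 to 0.37) in members, and -1.05 and -0.73 in the others. The difference between the cell sets was not tested.

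The maturation genes themselves differed little after IR. None of 14 (WT) and none of 10 (cKO) costimulation genes passed the limit (medians 0.17 and 0.14), and of the NF-κB list none of 28 did in WT and 1 of 27, Batf3 at -1.03, was lower in cKO. Ccl22 differed by 0.09 (-0.05 to 0.23) in WT and 0.64 (0.42 to 0.85) in cKO. Among regulatory genes, 3 of 11 were higher in WT, with Cd274 at 214.3 and 490.4 CPM (control, then IR; 1.19, 0.83 to 1.57), Pdcd1lg2 at 1.17 (0.69 to 1.69) and Il4i1 at 1.06 (0.76 to 1.39). In cKO these 3 differed by 0.42 (-0.03 to 0.9), -0.01 and -0.06, and 1 of 8 genes of the list, Tgfb1, was higher by 1.17. The difference between the labels was not tested. Cdkn1a, the cell cycle inhibitor p21, stood at 798.7, 770 and then 1404 and 1701 CPM, with ratios of 0.81 (0.62 to 1.01) and 1.14 (0.85 to 1.45).

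Macrophage genes differed in these contrasts. In WT, 5 of 12 macrophage genes were lower after IR and 2 higher, beside 3.09% and 5.13% of all genes. C1qa held 153 UMIs in WT control, 46 of them in 1 cell, and 34 in WT IR. Apoe held 48 UMIs in WT control, 35 of them in 1 cell, and 2 in WT IR. Apoe passed the filter through control, so the count in WT is not read. In cKO 4 of 4 were higher, with Arg1, the arginase of suppressive macrophages, at 0 UMIs in control and 276 UMIs in 16 cells after IR. The cKO control group held 20 cells and 29 UMIs of the whole macrophage list. The 4 genes compared in cKO therefore passed the filter through the IR group, and their direction is not read. The T cell genes were likewise lower after IR in WT, with 4 of 4 past the limit (142 against 3 UMIs). They passed the filter through their control UMIs, so this count is not read either.

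The 2 labels were compared within control and within IR. In control members 80 of 1764 genes (4.54%) were higher in cKO and 112 (6.35%) lower, or 52 and 153 with TMM factors. After IR, 123 of 4357 (2.82%) were higher in cKO and 71 (1.63%) lower. Of 1758 genes compared in both, 5 were higher in both and 5 lower in both. Here too the filter follows the deeper group, which is WT in control and cKO after IR, so neither the balance nor these counts are read.

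The 5 higher genes were Ythdf2, the m6A reader that the study targeted, and Rabgap1l, Bcl2l14, Git2 and 2410006H16Rik. In control, Rabgap1l, Bcl2l14 and Git2 passed the filter through the cKO group. Rabgap1l, a regulator of Rab GTPases, stood at 58.44, 134.6, 55.26 and 141.5 CPM (WT control, cKO control, WT IR, cKO IR), and was found in 13 of 44, 8 of 20, 18 of 50 and 54 of 86 members. Bcl2l14, of the BCL2 family, stood at 43.83, 351.4, 39.14 and 86.3 CPM. Both cKO groups lay above both WT groups for these genes. Rabgap1l (log2 ratio 2.41), 2410006H16Rik (2.31) and Bcl2l14 (1.49) were also higher in members with Fscn1 than without, and among Fscn1-positive members after IR Bcl2l14 stood at 98.06 CPM (cKO) and 81.56 (WT) and Rabgap1l at 193.8 and 100.8. The makeup of a group and the level per cell cannot be told apart in the sums. In other myeloid cells Rabgap1l stood between 5.731 and 6.882 CPM in all 4 groups, and its ratio of cKO over WT was -0.13 (-0.54 to 0.28) in control and 0.13 (-0.22 to 0.47) after IR. In members its ratio after IR was 1.33 (0.7 to 2.06), and none is given in control because of the filter.

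The 5 lower genes were Lyz2, C1qa, Cybb, Ckb and Fcgr3. In control these 5 passed the filter through the WT group, so only levels are given. Lyz2, the locus that carries Cre in cKO mice, was also lower in other myeloid cells labelled cKO, as given above. C1qa stood at 372.6, 22.43, 78.28 and 22.64 CPM, and 46 of its 153 UMIs in WT control were in 1 cell. Cybb, the phagocyte oxidase subunit, stood at 170.4, 29.9, 204.9 and 65.08 CPM, and Fcgr3, a low-affinity Fc receptor, at 124.2, 52.33, 184.2 and 90.55. C1qa, Cybb and Fcgr3 are abundant in monocytes or macrophages. All 6 macrophage genes compared in control were lower in cKO (median -2.94), but they passed the filter through the deeper WT group. The direction of this count is therefore not read. After IR 1 of 10 was lower and 2 higher (-0.58). C1q-bearing cells moved with the control contrast, and their part in it was not tested.

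In control tumors, several genes high in Fscn1-positive cells were also higher in members labelled cKO, of which 13 of 20 had a Fscn1 UMI against 22 of 44 in WT. Cd200 differed by 1.46 (0.98 to 1.97), Socs2 by 1.45 (0.97 to 1.97) and Batf3 by 1.3 (0.65 to 2), whereas Cxcl9, high in cells without Fscn1, differed by -1.46 (-1.86 to -1.1). Etv3 differed by 1.08 (0.7 to 1.47) as well, although it was -0.08 between cells with and without Fscn1. The shift in cell makeup and the differences in level cannot be told apart in the sums.

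After IR, some genes of the p53 target list were found in a larger share of members labelled cKO than WT. Of 7 genes compared, 4 were higher past the limit and none lower (median 1.14), beside 2.82% of all genes. Phlda3, Bbc3 and Sesn2 passed the filter through cKO IR (61, 26 and 47 UMIs, against 6, 3 and 7 in WT IR). The count and the median are therefore not read, and no ratios are given for these genes in the members. In other myeloid cells 1 of 11 was higher and none lower (median 0.01). Phlda3 (chr1:135766119-135769136, plus strand), a p53-induced inhibitor of AKT, stood at 2.435, 0, 13.81 and 86.3 CPM, and was found in 1 of 44, 0 of 20, 3 of 50 and 23 of 86 members. In other myeloid cells the ratio of Phlda3 in cKO over WT after IR was 1.02 (0.66 to 1.39).

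Bbc3, which encodes the death factor PUMA, was found in 4, 3, 3 and 20 members. Sesn2, a stress-induced regulator of mTORC1, was found in 5, 3, 6 and 29 members. Ccng1 (cyclin G1) was found in 10, 2, 8 and 28 members and differed by 1.14 (0.21 to 2.3). In each case the cKO IR group had the largest share of positive cells. Cdkn1a, Bax and Mdm2 were within the limit, at 0.28, 0.41 and 0.34. In other myeloid cells Bbc3 differed by -0.08, Sesn2 by -0.19 and Ccng1 by 0.24. Phlda3 stood at 65.97 CPM in members with Fscn1 and 8.046 in those without, and Bbc3 at 30.85 and 9.387. Both passed the filter through the former, so no ratio is given. Ccng1 was higher with Fscn1 by 1.21, and cKO IR held more Fscn1-positive members (59 of 86 against 26 of 50). Among Fscn1-positive members alone, Phlda3 was found in 3 of 26 (WT IR) and 19 of 59 (cKO IR), and the list median was 0.86. The top Scrublet scores, taken as suspected doublets, held 2 members of WT IR and 10 of cKO IR, and without them 3 of 6 genes were higher and the list median was 0.72. These counts and medians share the limit of the filter given above. The part of Fscn1-positive cells or suspected doublets in the result was not tested.

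Some large ratios came from single cells. Il23a, the second subunit of IL-23, had 32 UMIs in members, all in 1 cell of cKO IR, and 28 of 38 Hmox1 UMIs of cKO IR were in 1 cell. The other costimulation gene past the limit in cKO over WT after IR was Cd70, at 69.32 against 32.23 CPM (1.06, 0.22 to 2.08). Class II genes were lower in cKO than in WT after IR in 11 of 11 cases but none past the limit (median -0.47, all genes 0.03). H2-Ab1 stood at 9213 (cKO) and 9543 CPM (WT) in members without Fscn1 and at 1740 and 3123 in those with it. Cxcl10, a CXCR3 ligand, was lower by -1.3 (-1.51 to -1.09) at 454.1 against 1119 CPM. It was also higher without Fscn1 (1286 against 187.3 CPM), and 20 of 200 members held 83.79% of its UMIs. The makeup of a group and the level per cell cannot be told apart in these sums.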

How the data were processed

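The deposited values were raw UMI counts per gene, hashtag and barcode. Per the methods the authors counted them with Cell Ranger 6.0.1 (the file headers name version 4) on 10x 3′ libraries with mm10 and GENCODE vM23. Gene UMIs were 87703837 (tumor control) and 81601307 (tumor IR). Barcodes were chosen as described above; other tumor myeloid cells were the other leukocyte-gated cells with at most 2 lymphoid UMIs. The members and gene lists were chosen with earlier results of these data known. UMIs were summed over the cells of a group and given as CPM. Log2 ratios had 1 UMI, scaled to depth, added to each sum, with exact conditional binomial intervals at 95%; the limit was 1, and genes needed 10 UMIs expected in the smaller set. Differences of shares had Newcombe intervals. The script for ratios was tested on simulated data. Named genes were those of the 29 lists plus the genes with the largest ratios past the limit, with intervals that exclude 0, in all 4 groups (members against others) or in both contrasts (IR, genotype); for IR and genotype the smaller ratio ranked them. Other genes named were chosen after their values were seen. Suspected doublets were kept in the main values; Scrublet, run in scanpy 1.11.5, set no usable threshold of its own, and leaving out its top 6% was 1 of the alternatives, with other gates, hashtag margins, depth, thinning (seed 1), TMM factors and gene filters. Gene positions are from GENCODE vM21 (mm10), in which 314 of 314 genes matched by identifier. A gene of the lists enters the counts but is not reported here. Python 3.11.15 with scipy 1.17.1 was used.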

Additional observations from a re-analysis of the deposited data

Results flagged for a closer look

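The share of mature Ccr7 cells had opposite directions in the labels. IR minus control was -0.1829 points in cells labelled WT and 1.212 points in cells labelled cKO, and cKO minus WT was -0.7169 points in control tumors and 0.6776 points after IR. The difference between these differences was not tested, since each group is 1 pool.

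A few genes also passed the limit in opposite directions, and were named after their values were seen. After IR, Mfge8, a bridging protein for the uptake of dying cells, had log2 ratios of 2.24 in WT and -1.53 in cKO. Nlrp3, the inflammasome sensor, had -1.21 in WT and 1.96 in cKO, on 4 UMIs in cKO control. Insl6 had 1.03 in WT and -1.24 in cKO. For cKO over WT, the lipid carrier Apoe had -3.43 in control and 3.65 after IR, on 1 UMI in cKO control and 2 UMIs in WT IR, and Mfge8 had 2.68 in control and -1.06 after IR. None of these differences was tested.

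In blood, which entered no comparison, the selection took in 12 barcodes of the control library and 6 of the IR library, all with lymphoid UMIs and without Fscn1.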

How the results depend on the processing

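No paired analysis was possible because each group is 1 pool and the labels give no replicate numbers. No direction of a called value turned under any alternative run. The share in WT control was 1.133% with at least 10 selection UMIs, and with Fscn1-negative members left out (chosen after seeing the data) the shares were 0.8597% (WT control), 0.799% (WT IR) and 1.519% (cKO IR). The interval of IR minus control in cKO was above 0 in all settings, with values of 0.8674 to 1.417 points. That of cKO minus WT in control crossed 0 with at most 10% mitochondrial UMIs (-0.7108), at least 10 selection UMIs (-0.231), without the top Scrublet scores (-0.6925), thinned (-0.293) and with Fscn1-positive members alone (-0.2081), and that after IR with a 4-fold margin for both hashtags (0.3698) and without the top Scrublet scores (0.4768). With 3 UMIs expected, the genes past the limit numbered 1058 (IR, WT), 768 (IR, cKO), 806 (labels, control) and 830 (labels, IR), in place of 346, 160, 192 and 194. With 30 expected they were 88, 33, 44 and 28, and 1335, 1009 and 1523 for members against other myeloid cells, Flt3 or Cd209a dendritic cells and C1q macrophages, in place of 2098, 1766 and 2389; the number of genes that pass the filter differs by construction. In the control contrast of labels they were 122 with at least 10 selection UMIs and 111 with Fscn1-positive members alone. TMM factors gave 160 higher and 10 lower for IR in cKO (134 and 26 without) and 52 higher and 153 lower for cKO over WT in control (80 and 112), with the median of all genes at 0.13 and -0.15 on the log2 scale. The p53 list's median for cKO over WT after IR was 0.86 with Fscn1-positive members alone and 0.72 without the top Scrublet scores. Depth limits the cKO control group most, with 133760 UMIs in 20 members.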

Other observations

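Genes outside the lists and the naming rule, chosen after their values were seen, came from single cells in WT IR. Cxcl3, a neutrophil attractant, had 161 of 168 UMIs in 1 cell, Timp1 (an inhibitor of matrix proteases) 175 of 192, and Tnfsf15 (the cytokine TL1A) 42 of 43. With and without Fscn1, Clu (clusterin) had 49 and 0 UMIs and Ltc4s (leukotriene C4 synthase) 93 and 3 UMIs, whereas the cytotoxic genes Nkg7 and Gzmb had 0 and 79 and 0 and 50 UMIs. In WT control 1 cell held 62 of the 70 Nkg7 UMIs and 1 cell held 42 of the 50 Gzmb UMIs.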
